A study of Mus musculus with 13 samples.

Results

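The report describes 4 mouse microRNA (miRNA) genes, Mir30a, Mir30d, Mir7-1 and Mir7-2, in sorted male germ cells. They were chosen by a measured value: their products were among the most-read 24 nt sequences of spermatogonia and of leptotene/zygotene spermatocytes. They are 4 of the 2201 miRNA hairpins in the GENCODE M21 annotation, of which 1464 held at least 1 read. A read was counted when its 19 to 25 nt lay exactly within the annotated hairpin. Mir7-1 and Mir7-2 share their main product, so they were counted together as 1 unit. The 4 genes therefore gave 3 units of the 778 into which hairpins with shared reads were joined.

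The 13 germ cell libraries came from C57BL6/J mice of 3 to 4 weeks, whose testicular cells were sorted on Hoechst-33342 DNA staining. A set of 5 libraries without technical replicates held spermatogonia (SG, 1 library), leptotene/zygotene spermatocytes (LZ, 2 biological replicates), pachytene/diplotene spermatocytes (PD, 1 library) and round spermatids (RS, 1 library). A set of 8 libraries with technical replicates held 2 biological samples of spermatogonia (SG_T) and 2 of leptotene/zygotene spermatocytes (LZ_T), each sequenced in a 50-bp and a 100-bp run whose counts were summed. No label gave a genotype, and a header cell beside each of the 8 libraries of the second set carried a tag for a Pld6 knockout. Pld6 encodes an endonuclease of the mitochondrial surface that takes part in piRNA production, and the study worked with wild-type and Pld6 knockout animals, whose mutant testes lack the stages past zygotene. Set and genotype tag could therefore not be told apart when LZ_T was compared with LZ. All 5 libraries of the first set were 50-bp runs, so read length can be matched by taking the 50-bp runs of LZ_T alone. Nothing in the labels states that replicates came from separate animals, so p-values measure the spread between these samples.

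A miRNA is cut from a hairpin transcript. Drosha releases the hairpin in the nucleus and Dicer removes its loop, which leaves a duplex of a 5p and a 3p strand. Usually 1 strand is kept in an Argonaute protein, where the seed, bases 2 to 8 from its 5′ end, pairs with messenger RNAs and lowers their output. Members of a family share the seed. miR-30 is a broadly expressed family, and miR-7 is best known from neurons and endocrine cells. The position of the 5′ end sets the seed, whereas the 3′ end sets the length.

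The mature sequences below are from a table of RefSeq sequences (GRCm38.p6), in which 3 of the 4 genes were matched. They are shown because the shared seed, in capitals, is what joins each family, and because the end of the sequence is the reference point for the lengths that follow.
miR-30a-5p: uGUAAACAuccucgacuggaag
miR-30e-5p: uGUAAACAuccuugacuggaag
miR-30c-5p: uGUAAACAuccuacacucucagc
miR-7a-5p: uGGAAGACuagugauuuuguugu
miR-7b-5p: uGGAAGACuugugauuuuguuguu
The first 3 carry the miR-30 seed and the last 2 the miR-7 seed. miR-7a-5p is the same 23 nt sequence at Mir7-1 and at Mir7-2. The miR-30 hairpins followed here are Mir30d, Mir30a and the relatives Mir30b, Mir30c-1, Mir30c-2 and Mir30e. Mir7b is the relative followed for Mir7-1 and Mir7-2. Mir30f, annotated on the strand opposite Mir30e, was not followed.

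The most-read form of Mir30a and that of miR-7 ran past the RefSeq end. Selected forms are given as sequenced, with T for U, and capitals mark the bases that follow the RefSeq mature sequence and match the hairpin. Shorter forms were read too: the 22 nt form of miR-7, not listed, had 32461 reads in SG.
Mir30a, 22 nt: tgtaaacatcctcgactggaag
Mir30a, 23 nt: tgtaaacatcctcgactggaagC
Mir30a, 24 nt: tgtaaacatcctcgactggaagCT
Mir7-1/Mir7-2, 23 nt: tggaagactagtgattttgttgt
Mir7-1/Mir7-2, 24 nt: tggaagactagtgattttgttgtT
Mir7-1, 25 nt: tggaagactagtgattttgttgtTT
The 24 nt form of Mir30a is thus 2 bases longer than the RefSeq entry, and that of miR-7 is 1 base longer. In SG the 24 nt form of Mir30a had 24269 reads against 6594 for the RefSeq form of 22 nt. The 24 nt form of miR-7 had 73705 reads in SG against 26233 for the RefSeq form of 23 nt.

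The 4 genes lie on 4 chromosomes (GRCm38, GENCODE M21). The Mir30a hairpin spans chr1:23272269-23272339 on the plus strand and overlaps no other annotated gene. It lies 19361 bases from Mir30c-2. The Mir30d hairpin spans chr15:68341208-68341289 on the minus strand, in exons of the noncoding genes Gm20732 and Gm37296 on the same strand, and lies 3697 bases from Mir30b. The Mir7-1 hairpin spans chr13:58392779-58392886 on the minus strand, in an intron of Hnrnpk, a gene for an RNA-binding protein, on the same strand. The Mir7-2 hairpin spans chr7:78888277-78888373 on the plus strand and overlaps no other annotated gene.

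Libraries held 852565 to 29956080 reads. The 9 biological samples held 151495 to 2195136 exact miRNA reads of 19 to 25 nt. These made up 7.33% to 17.6% of all reads in SG, LZ, SG_T and LZ_T but 1.45% in PD and 1.98% in RS, so a share of miRNA reads and a level per 1000000 of all reads (RPM) can point in different directions. Both are given below. Of the 5 meiotic germ cell markers (Mir34b, Mir34c, Mir449a, Mir449b and Mir449c), 2 to 4 had reads in each sample. Their summed share was 0.0810% of miRNA reads in SG, 1.86% and 1.23% in the LZ replicates, 34.9% in PD and 49.9% in RS. It was 0.0309% and 0.0224% in SG_T and 0.0698% and 0.0495% in LZ_T, so the LZ_T samples had a level near that of SG and under that of LZ. The 13 markers of somatic and blood cells summed to 0.249% to 1.86% in the single-library set. They summed to 5.31% and 9.69% in SG_T and to 10.7% and 13.1% in LZ_T, with reads for all 13. Among them Mir143, of smooth muscle and peritubular cells, made up 3.97% and 7.75% in SG_T and 4.35% and 9.34% in LZ_T. Mir202, of Sertoli cells, made up 4.99% and 2.00% in LZ_T against 0.0226% and 0.0357% in LZ. From SG_T to LZ_T the summed markers of red blood cells and of leukocytes went down without overlap. Those of mesenchymal and Leydig-lineage cells went up, as did Mir202, and the endothelial marker overlapped. In each of PD and RS, 4 of the 13 were at 0. The part of other cells in the levels below was not tested, and fewer cells of a type cannot be told apart from less RNA per cell.

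Mir30a held 2.42% of miRNA reads in SG, 4.56% and 3.95% in the LZ replicates, 3.37% in PD and 1.92% in RS. In the technical-replicate set it held 2.19% and 1.57% in SG_T and 2.14% and 1.83% in LZ_T. Its share was thus highest in both LZ samples, next in PD, and within 1.57% to 2.42% in all the others. In RPM it stood at 3509 in SG, 3343 and 4125 in the LZ replicates, 487 in PD and 379.6 in RS. SG_T had 2247 and 1315 RPM and LZ_T 2826 and 3235 RPM. On this scale SG lay between the LZ replicates, and PD and RS were far under all other samples.

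Mir30d held 3.04% of miRNA reads in SG, 5.06% and 3.78% in the LZ replicates, 4.75% in PD and 2.15% in RS. It held 4.10% and 3.15% in SG_T and 2.34% and 2.01% in LZ_T. PD lay between the LZ replicates, and LZ_T and RS were the lowest. In RPM the levels were 4411 in SG, 3709.5 and 3947 in the LZ replicates, 687 in PD, 426 in RS, 4214 and 2639 in SG_T, and 3094 and 3548 in LZ_T. Counting error was small beside the spread between samples: the 95% Wilson interval of the share was 4.66% to 4.85% in PD, where Mir30d had 9124 reads. Such intervals cover counting error only, as these are PCR reads without molecular identifiers.

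The joined miR-7 unit had another course. It held 7.64% of miRNA reads in SG, 3.55% and 4.08% in the LZ replicates, 0.274% in PD and 0.820% in RS, with 4.42% and 3.94% in SG_T and 2.70% and 3.14% in LZ_T. SG was the highest sample and PD the lowest. In PD 527 reads remained, with a 95% Wilson interval of 0.252% to 0.299%, and in RS 2037 reads, with 0.785% to 0.856%. In RPM it stood at 11085 in SG, 2604 and 4256 in the LZ replicates, 39.7 in PD and 162 in RS. SG_T had 4537 and 3296 RPM and LZ_T 3567 and 5528 RPM, which overlapped each other and LZ.

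**Figure D1:**
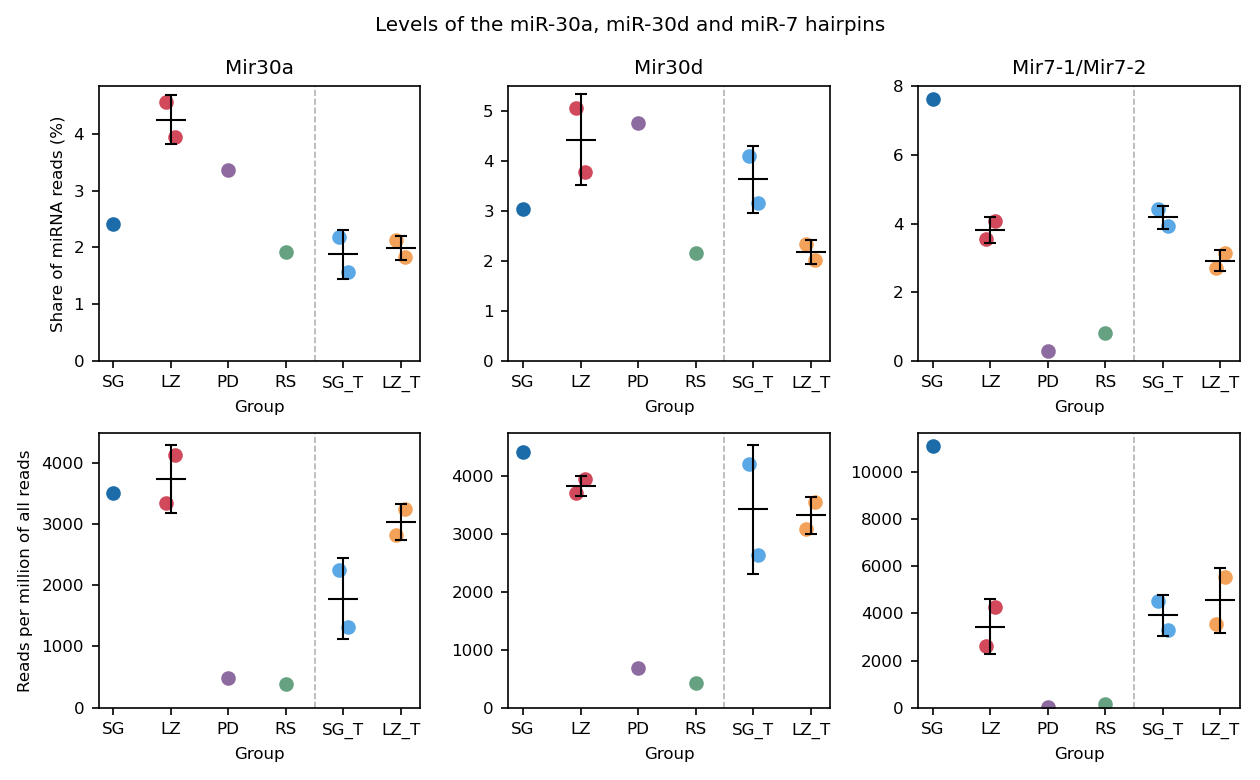
Share of miRNA reads in percent (top row) and RPM over all reads (bottom row) for the 3 units, by group; each point is a biological sample, bars are mean ± SD where a group has 2 samples, and a dashed line parts the single-library set from the technical-replicate set. In PD both miR-30 units are far lower than in LZ on the lower scale alone, with shares of 3.37% and 4.75%, whereas miR-7 is lower on both, at 0.274% of miRNA reads; in RS the shares of Mir30a and Mir30d are 1.92% and 2.15%.

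Ranks among all miRNA units put these values in context. Mir30a ranked 5 to 9 among units in SG, LZ, PD and RS and 12 to 18 in SG_T and LZ_T. Mir30d ranked 3 to 7 in the single-library set, 5 and 8 in SG_T, and 13 and 15 in LZ_T. The miR-7 unit ranked 4 in SG, 8 and 5 in the LZ replicates, 41 in PD, 18 in RS, and 4 to 11 in SG_T and LZ_T. By reads summed over the 9 samples, in which deep libraries weigh most, Mir881, the joined Mir465 hairpins, Mir871, miR-7 and Mir30d were the 5 most-read units. The marker Mir34c, not among them, held 33.9% of miRNA reads in PD and 48.7% in RS. Mir881 held 10.8% to 18.1% of miRNA reads in the single-library set and 6.12% to 7.57% in the technical-replicate set.

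The course of spermatogenesis could be followed only in the single-library set, where SG, PD and RS had no replicate, so the following steps carry no test. Values were compared as shares of miRNA reads, and a unit was counted when it differed over 2-fold with both LZ libraries on that side. From SG to LZ, 19 of 212 units with at least 100 reads (8.96%) were higher and 50 (23.6%) lower. miR-7 was among those lower, at 2.00-fold, right at the limit. Mir30a was 1.76-fold higher and Mir30d 1.45-fold higher in LZ, neither past 2-fold, while the median unit had a log2 ratio of -0.30. From LZ to PD, 31 of 184 units (16.8%) were higher and 87 (47.3%) lower. miR-7 was 13.9-fold lower in PD. Mir30a, 1.26-fold lower, and Mir30d, 1.07-fold higher, did not pass the limit in a step in which the median log2 ratio was -0.84. From PD to RS, 5 of 92 units (5.43%) were higher, miR-7 among them at 2.99-fold, and 14 (15.2%) were lower, Mir30d among them at 2.21-fold. Mir30a was 1.76-fold lower in RS, under the limit.

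Of the seed relatives, Mir30e had 1.06% of miRNA reads in SG, 0.784% and 1.18% in the LZ replicates, 0.975% in PD and 1.15% in RS. The joined Mir30c-1 and Mir30c-2 held 0.518% in SG, 0.363% and 0.606% in the LZ replicates, 0.434% in PD and 0.499% in RS. Mir30b was rare, with 0.0299% to 0.0680% across these samples. None of these 3 units passed the 2-fold limit in any of the 3 steps. Mir7b had 275 reads in SG, 175 and 314 in LZ, 12 in RS and 0 of 192099 miRNA reads in PD, which allows a share of up to 0.00156%.

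To compare leptotene/zygotene cells with spermatogonia in the replicated set, counts of all units were fitted with edgeR's quasi-likelihood test over SG_T, LZ_T and LZ, with TMM scaling and Benjamini-Hochberg adjustment. Of 356 units, 4 (1.12%) were higher and 1 (0.281%) lower in LZ_T than in SG_T at an adjusted p under 0.05, and 74 had an unadjusted p under 0.05. The calls were 15 higher and 12 lower with RLE size factors, and 23 higher and 0 lower with all reads as library size, which put the median unit at 0.58. No member unit was called. The log2 change was 0.20 ± 0.38 (SE) for Mir30a (adjusted p = 0.876), -0.62 ± 0.39 for Mir30d (adjusted p = 0.438) and -0.41 ± 0.37 for miR-7 (adjusted p = 0.601). Their unadjusted p-values were 0.610, 0.128 and 0.290, and DESeq2 called none of them. In simulated counts for this comparison, 87 of 343 units had a planted 2-fold change and 84 a planted 4-fold change. The fit found 26.4% and 52.4% of them, so changes of this size were often missed there. So large a part of changed units eases the adjusted p cut, and the rates may not carry over to these data.

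As shares of miRNA reads, both SG_T samples of Mir30d, at 3.63% ± 0.67 (SD, n = 2), lay above both LZ_T samples, at 2.18% ± 0.23 (SD, n = 2). The same held for miR-7, at 4.18% ± 0.34 against 2.92% ± 0.31 (SD, n = 2 each). Of the 356 units, 83 (23.3%) were likewise lower in LZ_T without overlap and 91 (25.6%) higher, so these separations are common among the units. Mir30d was higher in LZ than in SG in the single-library set, and 72 of the 356 units (20.2%) had such opposite directions without overlap. Each difference, of -1.45 and -1.26 percentage points, had p = 0.333 in a two-sided exact permutation test, the smallest value that 2 against 2 samples can give. For Mir30a the samples overlapped, with 1.88% ± 0.44 for SG_T against 1.99% ± 0.22 for LZ_T (SD, n = 2 per group, exact permutation p = 1). Where each technical run was taken alone, the direction of the Mir30d and miR-7 differences was unchanged.

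The comparison of LZ_T with LZ sets knockout-tagged against other cells with the same stage label. It also sets the 2 sets against each other, and the LZ reads were among those that chose the genes. The markers differed too: the meiotic ones summed to 0.0698% and 0.0495% in LZ_T against 1.86% and 1.23% in LZ. The 13 of somatic and blood cells summed to 10.7% and 13.1% against 1.27% and 0.720%. What part these differences have in the member changes was not tested. The comparison is therefore given as a description of size, and the adjusted p-values below are not support for a change. In the same fit 86 of 356 units (24.2%) were higher and 83 (23.3%) lower in LZ_T, with a median log2 change over all units of 0.31. With RLE the split was 76 higher and 101 lower, and with all reads as library size 185 higher and 29 lower. All 3 member units were lower with TMM. Mir30a had a log2 change of -1.88 ± 0.40 (SE, adjusted p = 8.4e-04), Mir30d of -1.82 ± 0.40 (adjusted p = 0.00129) and miR-7 of -1.12 ± 0.38 (adjusted p = 0.0206). With the 50-bp runs of the technical-replicate set alone, the log2 changes were -2.29, -2.25 and -1.70 (adjusted p = 0.000238, 0.000317 and 0.00212). The call for miR-7 was lost without LZ_T replicate 1, when its log2 change was -0.86 (adjusted p = 0.240), and with the replicate number as a block, when it was -1.08 (adjusted p = 0.0786).

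The sizes depended on the scale, and for miR-7 the sign did. With all reads of the library as the library size, the log2 change became -0.30 ± 0.50 for Mir30a (adjusted p = 0.619), -0.21 ± 0.49 for Mir30d (adjusted p = 0.738) and 0.41 ± 0.49 for miR-7 (adjusted p = 0.497). The median unit was then at 1.68. A change of scale moves all units by a similar amount, so differences from the median unit stay nearly the same by construction and are no further check. Relative to the median unit, Mir30a was at log2 differences of -2.19 with TMM and -1.99 with all reads. Mir30d was at -2.13 and -1.89, and miR-7 at -1.42 and -1.28. Of the relatives, Mir30e lay at -0.29 and -0.24, Mir30c-1/Mir30c-2 at -0.32 and -0.30, Mir30b at 0.63 and 0.69, and Mir7b at -1.19 and -1.21, close to miR-7. With TMM the log2 change of Mir30e was 0.01 ± 0.40 (adjusted p = 0.980), and that of Mir30c-1/Mir30c-2 was -0.02 ± 0.45 (adjusted p = 0.976). With all reads as library size Mir30e was called, at 1.45 ± 0.56 (adjusted p = 0.0257). A difference between members and relatives was not tested.

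**Figure D2:**
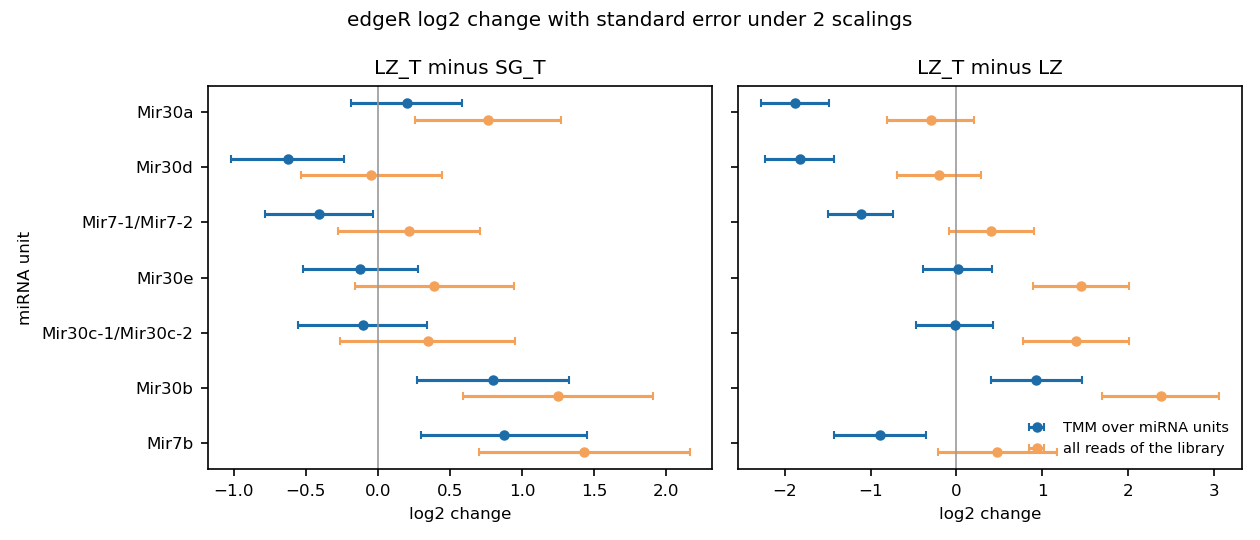
edgeR log2 change with its standard error for the 3 member units and 4 seed relatives, in LZ_T minus SG_T (left) and LZ_T minus LZ (right), with TMM over miRNA units (blue) or all reads of the library (orange) as the scale. In the right panel the members move from -1.88, -1.82 and -1.12 to -0.30, -0.21 and 0.41 when the scale changes.

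Length sets the members apart from most miRNAs, as the choice of the genes by 24 nt reads implies. 24 nt was the most frequent length of all 3 units in all 9 samples. Of Mir30a reads, 52.1% were 24 nt in SG, 60.9% and 59.7% in the LZ replicates, 47.5% in PD and 32.4% in RS. Of Mir30d reads the shares were 55.6%, then 65.99% and 60.9%, then 68.3%, then 51.4% in the same order. Of miR-7 reads they were 50.05%, then 57.8% and 53.5%, then 81.8%, then 88.7%. In SG_T and LZ_T the 24 nt share lay between 56.9% and 66.5% for the 3 units. The median over the other units with at least 1000 reads was 0.0930% to 0.571% in the 9 samples. In SG the member just inside the top of the 24 nt list was Mir30a, with 4.42% of all 24 nt reads, and the miRNA just outside was Mir30e, with 2.41%. In SG_T and LZ_T Mir30e came before Mir30a, with 2.90% to 5.61% of 24 nt reads against 2.58% to 5.21%.

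**Figure D3:**
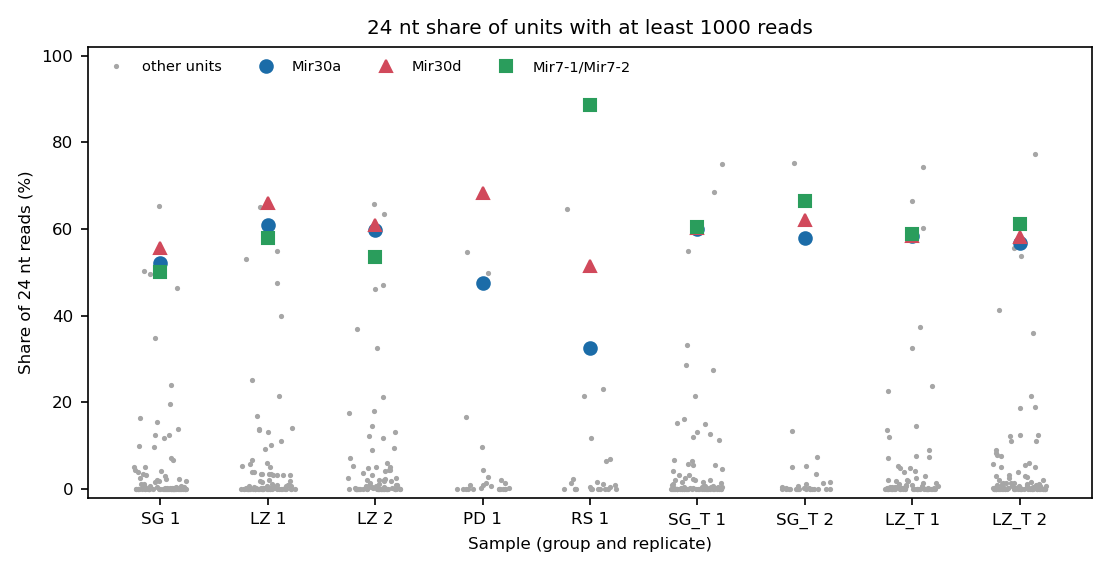
Share of 24 nt reads in percent among the reads of each miRNA unit with at least 1000 reads, by biological sample; grey points are other units, and coloured symbols are Mir30a, Mir30d and Mir7-1/Mir7-2. The members stand between 32.4% and 88.7%, with miR-7 absent from PD for want of reads, whereas most other units lie near 0.

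The 3 units together held a large part of all 24 nt reads, as their choice by 24 nt reads of spermatogonia and leptotene/zygotene cells implies. They made up 23.8% of all 24 nt reads in SG, 14.1% and 17.6% in LZ, 16.2% and 15.5% in SG_T, and 13.97% and 20.6% in LZ_T. In PD and RS they made up 2.96% and 3.31%. Among the 24 nt reads that matched miRNA hairpins, the members supplied 50.9% to 80.1% in the 9 samples. The most-read 24 nt sequence was that of miR-7 in SG, SG_T and LZ_T, with 13.4% of 24 nt reads in SG. It was that of Mir30d in LZ replicate 1, PD and RS and that of Mir30a in LZ replicate 2.

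In PD and RS Mir30a had more short forms and miR-7 fewer. In RS, 25.04% of Mir30a reads were 21 nt, against 3.602% to 8.92% in SG, LZ, SG_T and LZ_T and 13.9% in PD. The mean length of Mir30a was 23.1 nt in SG and 22.4 nt in RS. For miR-7 the 22 nt form made up 22.1% in SG and 15.4% and 17.6% in LZ but 3.42% in PD and 0.835% in RS. Its mean length was 23.2 nt in SG and 23.9 nt in RS. The 95% Wilson intervals of the 24 nt share of miR-7 were 78.3% to 84.8% in PD and 87.2% to 90.0% in RS, both above every other sample. PD and RS had 1 library each, so these differences have no replicate check.

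**Figure D4:**
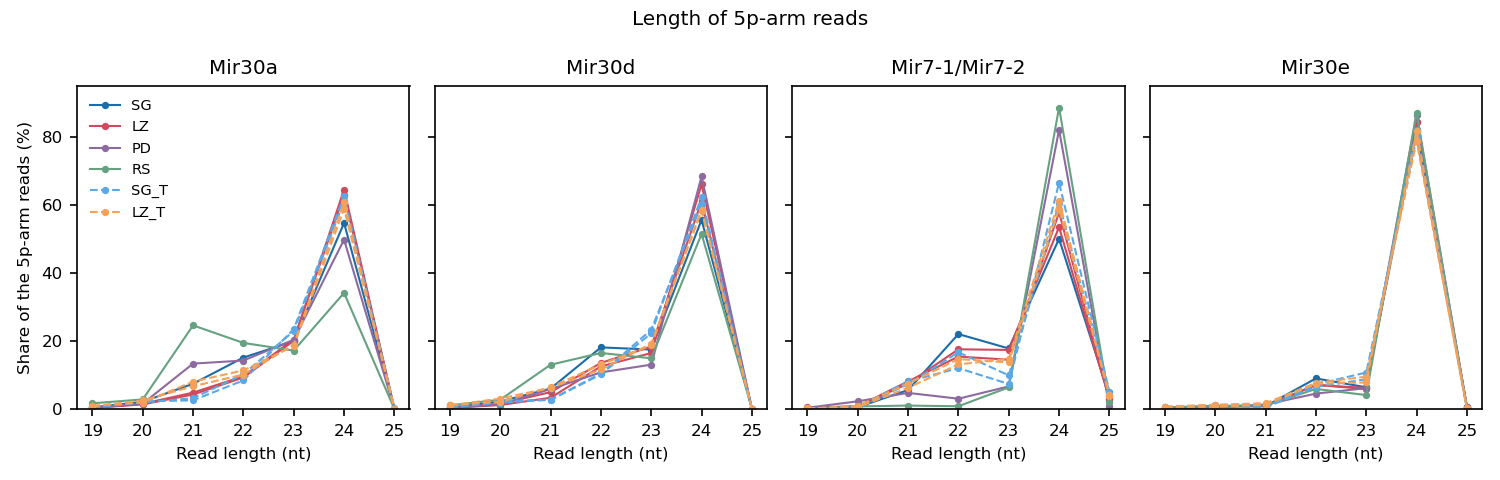
Share of 5p-arm reads in percent at each length from 19 to 25 nt for the 3 member units and Mir30e; each line is a biological sample, coloured by group, with dashed lines for SG_T and LZ_T. All lines peak at 24 nt; the RS line of Mir30a has a shoulder at 21 nt, and the PD and RS lines of miR-7 reach 82.1% and 88.7%.

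The sequencing run moved with the 24 nt share. In each of 12 pairs of runs (3 units in the same 4 samples) the 100-bp run had the higher 24 nt share, by 1.14 to 10.3 percentage points. The whole libraries shifted too, with more 24 nt reads per 11 nt read in the 100-bp run of each sample. LZ_T replicate 1 held 24759 reads of 24 nt and 82122 of 11 nt in the 50-bp run. In its 100-bp run these were 222698 and 110024. Other units were not taken apart by run, so the shift is not shown to be particular to the members. For Mir30d in SG_T the 24 nt share was 51.0% and 58.0% in the 50-bp run and 61.3% and 64.8% in the 100-bp run. In LZ_T it was 50.3% and 53.8% against 59.3% and 59.4%. The share of miRNA reads was higher in the 100-bp run in 8 of the 12 pairs and differed by -0.152 to 0.660 percentage points. With runs summed, the 24 nt share of Mir30d differed by -2.94 percentage points between LZ_T and SG_T, with no overlap (exact permutation p = 0.333, n = 2 each). Of 33 units with at least 1000 reads in all 4 samples, 6 (18.2%) were lower without overlap and 4 (12.1%) higher. It overlapped for Mir30a, at 59.0% ± 1.5 and 57.6% ± 1.1, and for miR-7, at 63.5% ± 4.3 and 60.01% ± 1.8 (SD, n = 2 each; exact permutation p = 0.667 for both).

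The arms of the hairpins were very unequal. The genes were chosen by most-read sequences that came from the 5p arm, so a low 3p share is partly implied by the choice. The relatives were not chosen in this way, so their 3p shares are given as a description and are no even comparison. Of Mir30a reads, 3.48% to 5.71% came from the 3p arm in the 9 samples. Its mature 3p strand in RefSeq is given for the seed, which is not that of the 5p strand.
miR-30a-3p: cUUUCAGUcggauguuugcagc
For Mir30d 0.130% to 0.286% of the reads came from the 3p arm. For miR-7 the share was 0.0205% to 0.380% in 8 samples, with 0 of 2037 reads in RS, which allows up to 0.147%. From SG_T to LZ_T the 3p share of Mir30a went from 4.10% and 5.17% to 3.97% and 3.48%, and that of Mir30d from 0.221% and 0.209% to 0.286% and 0.262%. Each had an exact permutation p of 0.333 (n = 2 each), and the Mir30d difference turned over in the 50-bp run alone, to -0.127 percentage points. How many other units separate in their 3p share was not counted, so these separations may be common. Among the relatives, Mir30e had 20.3% to 37.0% in the single-library set and 5.43% to 8.32% in the technical-replicate set. Mir30c-1/Mir30c-2 had 6.93% to 37.0% and 4.02% to 10.5%, and Mir7b had 0 of 275 reads from this arm in SG, which allows up to 1.09%.

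The 5′ ends were fixed. Of the 5p reads, 98.2% to 98.9% began at the same base for Mir30a, 99.6% to 99.9% for Mir30d and 99.6% to 99.95% for miR-7. The 3p reads of Mir30a were less uniform, and 11.7% to 22.2% began 1 base later, which moves the seed by 1 base. The variation in length of the members therefore lay at the 3′ end, and the seed of the 5p strand was the same in nearly all reads.

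Reads that match only 1 of the miR-7 genes were few. Between 94.8% and 98.5% of the reads of the joined unit lay in both Mir7-1 and Mir7-2. Among 5p reads that fitted just 1 of them, 98.2% to 100% fitted Mir7-1, as 5542 against 79 reads in SG and 2267 against 41 in LZ_T replicate 2. Most of these are the 25 nt form shown above, whose last T could also be an untemplated U on a product of Mir7-2. The 3p strands differ between the genes, and 16 to 54 of their reads matched Mir7-1 alone in SG, LZ, SG_T replicate 1 and LZ_T, against 0 to 2 for Mir7-2.
miR-7a-1-3p: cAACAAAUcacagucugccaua
miR-7a-2-3p: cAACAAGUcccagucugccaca
In SG this was 33 against 1 read, so 97.1% of the resolved 3p reads matched Mir7-1, with a 95% Wilson interval of 85.1% to 99.5%. In LZ_T it was 30 against 2 and 54 against 2 reads.

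Reads whose 5p strand had up to 3 extra bases that do not match the hairpin were left out of the counts above. They made up 13.6% to 33.1% of the 5p reads of Mir30a, 16.3% to 32.9% of those of Mir30d and 11.5% to 25.7% of those of miR-7. The lowest share was in PD for both miR-30 units and in LZ replicate 1 for miR-7, and the highest in SG_T replicate 2 for all 3. Tails of C alone were the commonest kind for miR-7, at 7.83% to 21.3% of its 5p reads, while tails of T alone made up 0.269% to 2.17%. A T after the 24 nt form of miR-7 matches Mir7-1 and is then counted as templated. For Mir30a tails of C alone made up 4.59% to 15.4% and tails of T alone 4.43% to 10.8%.

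Pooling reads by seed shows how much of each seed the members supply. Reads with the miR-30 seed at its place made up 6.57% of miRNA reads in SG, 10.01% and 8.88% in the LZ replicates, 8.90% in PD and 5.29% in RS. They made up 9.92% and 6.29% in SG_T and 6.96% and 5.79% in LZ_T. Mir30d supplied the largest part in all 9 samples, from 33.5% in LZ_T replicate 1 to 53.2% in PD. Mir30a supplied 33.8% to 42.5% in the single-library set, 20.9% and 23.3% in SG_T, and 29.0% and 30.0% in LZ_T. Mir30e supplied 4.82% to 15.7% in the single-library set and 19.2% to 23.7% in the technical-replicate set. For the miR-7 seed, Mir7-1 and Mir7-2 supplied 99.4% to 100% of the reads, and Mir7b at most 0.586%.

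**Figure D5:**
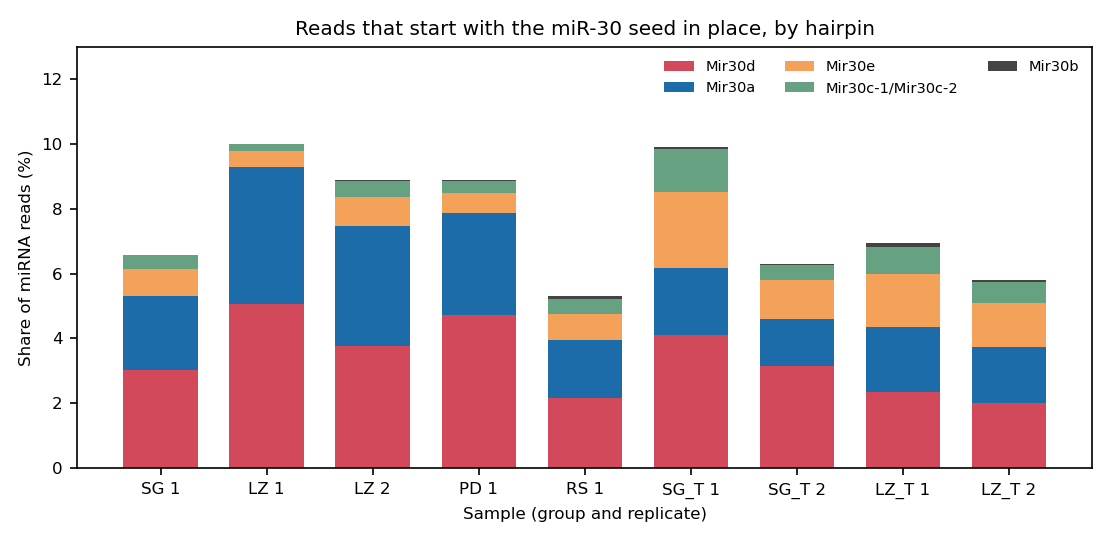
Share of miRNA reads in percent that carry the miR-30 seed at the 5p start, stacked by the hairpin of origin, for each biological sample. The total runs from 5.29% in RS to 10.01% in LZ replicate 1, and Mir30d is the largest part of every bar.

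The units with the course most like that of the members were sought over the 9 samples, as Pearson's r of log2(share in percent + 0.001) over 79 units of at least 100 RPM on average. For Mir30a they were Mir881 (r = 0.864), Mir146b (0.815) and Mir741 (0.812), and Mir30d ranked 5 with r = 0.74. For Mir30d they were the joined Mir128-1 and Mir128-2 (0.756), Mir30a (0.74) and Mir146b (0.697). For miR-7 they were Mir181d (0.934), Mir185 (0.921) and Mir743 (0.909), whereas Mir30a and Mir30d had r = -0.11 and -0.0848 with it. These 9 points share stages, sets and depths, so the values describe the libraries and carry no test.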

How the data were processed

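Small RNA was sequenced from 13 libraries of sorted mouse germ cells with the TruSeq Small RNA kit. The authors deposited, for each library, the read count of every distinct adapter-trimmed sequence of 11 nt or longer. These deposited counts are raw. The submitters' processing notes name cutadapt. The deposited retrotransposon tables of RPM values were not used. A sequence list of SG had 1 line without a count, which was left out. Groups follow the stage and replicate type in the labels. Counts of the 2 technical replicates were summed, which left 9 biological samples.

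Reads of 19 to 25 nt were matched without mismatch to GENCODE M21 miRNA transcripts. Hairpins were joined where at least 50% of the reads of the less-read hairpin also lay in the other. A read was counted once in each unit it matched, and RPM are per 1000000 of all reads. The members, lists and tests were chosen with earlier results of these data known. Named units are the 4 members, their 5 seed relatives, the 3 units most like each member, the 5 most-read units and the cell type markers. Any other unit is said to be named after its values were seen. Counts were tested with edgeR 4.0.16 in R 4.3.3 (filterByExpr, TMM, robust quasi-likelihood, adjusted p under 0.05), with DESeq2 1.42.0 as an alternative. Standard errors are the log2 change divided by the root of the F statistic. Shares were tested with exact permutation tests (scipy 1.17.1). The fit was tested on simulated data. Scaling, filter, tool, block, read length, tails, run and left-out samples were varied.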

Additional observations from a re-analysis of the deposited data

Results flagged for a closer look

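Of 12 pairs of a unit and a measure, 3 differed in direction between the 2 sets when leptotene/zygotene cells were set against spermatogonia, with every sample of a set moving the same way. The difference between the sets was not tested, since SG of the single-library set has 1 library, and set and genotype tag cannot be told apart. Opposite directions without overlap are common: 72 of 356 units (20.2%) had them in the share of miRNA reads, and 6 of 33 (18.2%) in the share of 24 nt reads. The share of miRNA reads held by Mir30d was 1.38 percentage points higher in LZ than in SG, at 5.06% and 3.78% against 3.04%. In the technical-replicate set it differed by -1.45 percentage points, at 2.34% and 2.01% in LZ_T against 4.10% and 3.15% in SG_T. In RPM, Mir30d was lower in LZ than in SG and overlapped between SG_T and LZ_T, so the opposite directions are those of the share of miRNA reads.

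The 24 nt share of Mir30d reads was 7.91 percentage points higher in LZ than in SG and differed by -2.94 between LZ_T and SG_T. With the 50-bp runs alone, the read length of the single-library set, the LZ_T minus SG_T differences of Mir30d were -1.29 percentage points in the share of miRNA reads and -2.43 in the 24 nt share. The 3p-arm share of Mir30a reads was 0.625 percentage points higher in LZ than in SG and differed by -0.910 between LZ_T and SG_T. In SG_T replicate 2 this arm had 123 reads. How often other units had opposite directions in the 3p-arm share was not counted. No group had 4 samples or more, so single samples were not tested for standing apart.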

How the results depend on the processing

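In all, 17 results were recomputed under 204 alternatives, of which 179 were labelled as the same. For log2 changes this meant the same direction and call, for counts of called units a similar number, and for shares the same direction alone. For shares the replicate block leaves the difference of means as it is, so it could not reverse it. By the reported fit, 5 units were called between LZ_T and SG_T. Their number was 27 with RLE size factors, 23 with all reads as library size, 19 without the filter on low counts, 40 with DESeq2, 17 with the 2 groups alone, and 0 to 10 when a sample was left out: 0 without LZ_T replicate 1 (edgeR, 42 at an unadjusted p under 0.05), 10 without SG_T replicate 2, and 1 without each of the other 4. No member was called in any of them. Between LZ_T and LZ 169 units were called, and 97 to 193 when a sample was left out, with 97 without LZ replicate 1, 106 without LZ_T replicate 1 and 108 without LZ_T replicate 2. The share of calls that were higher went from 86 of 169 to 185 of 214 with all reads as library size and 76 of 177 with RLE.

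With all reads as library size, the log2 change between LZ_T and LZ was -0.30 for Mir30a, -0.21 for Mir30d and 0.41 for miR-7, none called, and that of miR-7 between LZ_T and SG_T turned from -0.41 to 0.22 (adjusted p = 0.861). Samples left out in turn gave log2 changes of -2.55 to -1.72 for Mir30a, -2.56 to -1.53 for Mir30d and -1.66 to -0.86 for miR-7 between LZ_T and LZ. The difference in share of Mir30a ran from -0.201 to 0.415 percentage points and reversed without SG_T replicate 2 (-0.201) and without LZ_T replicate 1 (-0.0452). The 3p share of miR-7 ran from -0.0206 to 0.0856 and reversed without SG_T replicate 2. The 3p share of Mir30d reversed in the 50-bp run alone (-0.127). Apart from the scale, the cause of these shifts was not tested.

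Replicate numbers are shared between groups, but the labels tie them to no common litter or day. Deviations of same-numbered samples correlated at 0.282 over 356 units for LZ_T and SG_T and at -0.0282 for LZ_T and LZ. With 2 samples per group the deviations mirror each other, so the second pair adds nothing. The values therefore cannot decide whether the samples are paired. A replicate block, with the 2 groups alone, gave 73 calls between LZ_T and SG_T and 198 between LZ_T and LZ, where miR-7 lost its call (log2 change -1.08, adjusted p = 0.0786). One alternative, the 24 nt share over 5p reads alone, was chosen after seeing the data and reversed no difference. Depth limits the rare values, such as Mir7b and the miR-7 3p arm.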

Other observations

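Mir30e was 24 nt in 78.8% to 87.2% of its 5p reads in all 9 samples, a narrower range than that of Mir30a. The joined Mir30c-1 and Mir30c-2 peaked at 23 nt in SG, LZ, PD and RS, with 24.8% to 44.7% of 5p reads at 24 nt. In SG_T and LZ_T they peaked at 24 nt, with 56.3% to 71.4%. The 24 nt form of miR-30c adds 1 templated base to the RefSeq sequence, and set and genotype tag cannot be told apart for it. SG_T and LZ_T also include 100-bp runs, in which the members had higher 24 nt shares. The runs were not taken apart for miR-30c.

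Outside the 2 families few units of at least 1000 reads had a high 24 nt share. Mir146b, named after its values were seen, had 49.5% in SG, 65.2% and 63.6% in LZ, and 60.2% and 55.5% in LZ_T. Mir883b, likewise, had 50.2% in SG and 47.1% in LZ replicate 2, against 33.3% in SG_T replicate 1 and 32.6% and 36.0% in LZ_T. The joined unit of Gm22051 and 39 other hairpins, likewise, had 46.3% in SG and 55.0% and 46.2% in LZ. It had 54.9% in SG_T replicate 1 and 37.5% and 41.4% in LZ_T. Mir7214, likewise, had 47.6% in LZ replicate 1 and 49.8% in PD.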
